A study of Mus musculus with 8 samples.

Results

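The glutathione, thioredoxin and Nrf2 redox genes were 40 genes picked by symbol, and all 40 were found among the 43346 genes of the count table. The RNA was that of MC3T3, a line of mouse pre-osteoblasts, kept for 7 days in ascorbic acid (100 µg/mL) and beta-glycerophosphate (10 mM), which let the cells mineralize their matrix. The LLC-CM group of 4 libraries also received 25% medium conditioned for 48 h, without serum, by LLC1, a line from the Lewis lung carcinoma of mice. The NCM group of 4 libraries is taken as the vehicle group by elimination, since the labels do not spell the name out. A conditioning time of 48 h is recorded for the NCM libraries too, with no percent of conditioned medium. Both groups are 1 cell line, and no label says whether each replicate was its own culture. The p-values therefore refer to the spread among these libraries only, which may be technical. The comparison asks how RNA levels in mineralizing osteoblasts differ with medium conditioned by the carcinoma cells, here for the genes that handle oxidants.

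Glutathione is a small thiol peptide made in sequence by glutamate-cysteine ligase (Gclc and Gclm) and glutathione synthetase (Gss), and kept reduced by glutathione reductase (Gsr). Transferases join it to reactive compounds, glutathione peroxidases use it against peroxides, and peroxiredoxins do similar work with electrons from thioredoxin and thioredoxin reductase. Nrf2, encoded by Nfe2l2, is a transcription factor that Keap1 holds for degradation until oxidants or electrophiles modify Keap1. It then drives many of these genes through antioxidant response elements.

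Library totals ran from 27264212 to 35573953 counts, and levels are in CPM, counts scaled to each library's adjusted total. Taking 3 counts as the limit that a count of 0 allows, the floor was 0.110 CPM in the library of lowest depth, which covers counting error only. The first principal component separated LLC-CM from NCM. All 8 osteoblast markers examined were expressed, with 1 higher and 7 lower in LLC-CM, and a summed level of 50743 to 59840 CPM in LLC-CM and 68007 to 89875 CPM in NCM. Of 7 macrophage markers, 4 were tested and 2 were higher, with a summed level of 18.7 to 32.3 CPM in LLC-CM and 11.7 to 17.4 CPM in NCM, mostly Lyz2, while Itgam was at 0 in every library and Adgre1 and Ptprc at 0 in every LLC-CM library. Of 6 epithelial and carcinoma markers, 1 was tested and was higher, while Krt8, Krt18 and Epcam were at 0 in every library. The summed level was 1.11 to 2.24 CPM in LLC-CM and 0.318 to 0.709 CPM in NCM, mostly Muc1 (means 1.46 and 0.383 CPM). Of 6 adipocyte markers 2 were higher and 1 lower, at 29.3 to 39.9 CPM summed in LLC-CM and 26.5 to 30.1 CPM in NCM. Endothelial markers summed to at most 1.71 CPM in LLC-CM and 2.73 CPM in NCM, with Kdr and Cdh5 at 0. The 1 endothelial marker tested was lower. Skeletal muscle markers summed to at most 1.96 CPM in LLC-CM and 0.887 CPM in NCM, with Myog at 0, and 1 of the 2 tested was higher. Erythroid markers had no read in LLC-CM and summed to at most 0.0354 CPM in NCM. The part of these markers in the redox results was not tested. In bulk RNA, fewer cells of a type and less RNA per cell cannot be told apart.

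Most redox genes were higher in LLC-CM, by small amounts. Of the 40 members 37 had enough reads to be tested, and 24 of these 37 (64.9%) rose and 1 (2.70%) fell, at a Benjamini-Hochberg adjusted p under 0.05 over all genes in edgeR's quasi-likelihood test. Of all 14991 genes tested, 18.8% rose and 18.1% fell. The median log2 fold change of the 37 was 0.28, against 0.01 over all genes tested. All LLC-CM libraries lay above all NCM libraries for 21 of the 37, and below them for 2, against 18.1% and 18.2% of all genes tested. Of the 37, 7 (18.9%) rose by at least 0.5 on the log2 scale, where 10.0% of all genes tested did, and 2 (5.41%) rose by at least 2-fold, where 4.99% of all genes did. A single member, Mgst3, fell by at least 0.5 on the log2 scale, against 7.84% of all genes. The remaining 17 called members rose by less than 0.5. The untested members were Gpx3, Gsta4 and Mgst1.

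**Figure D1:**
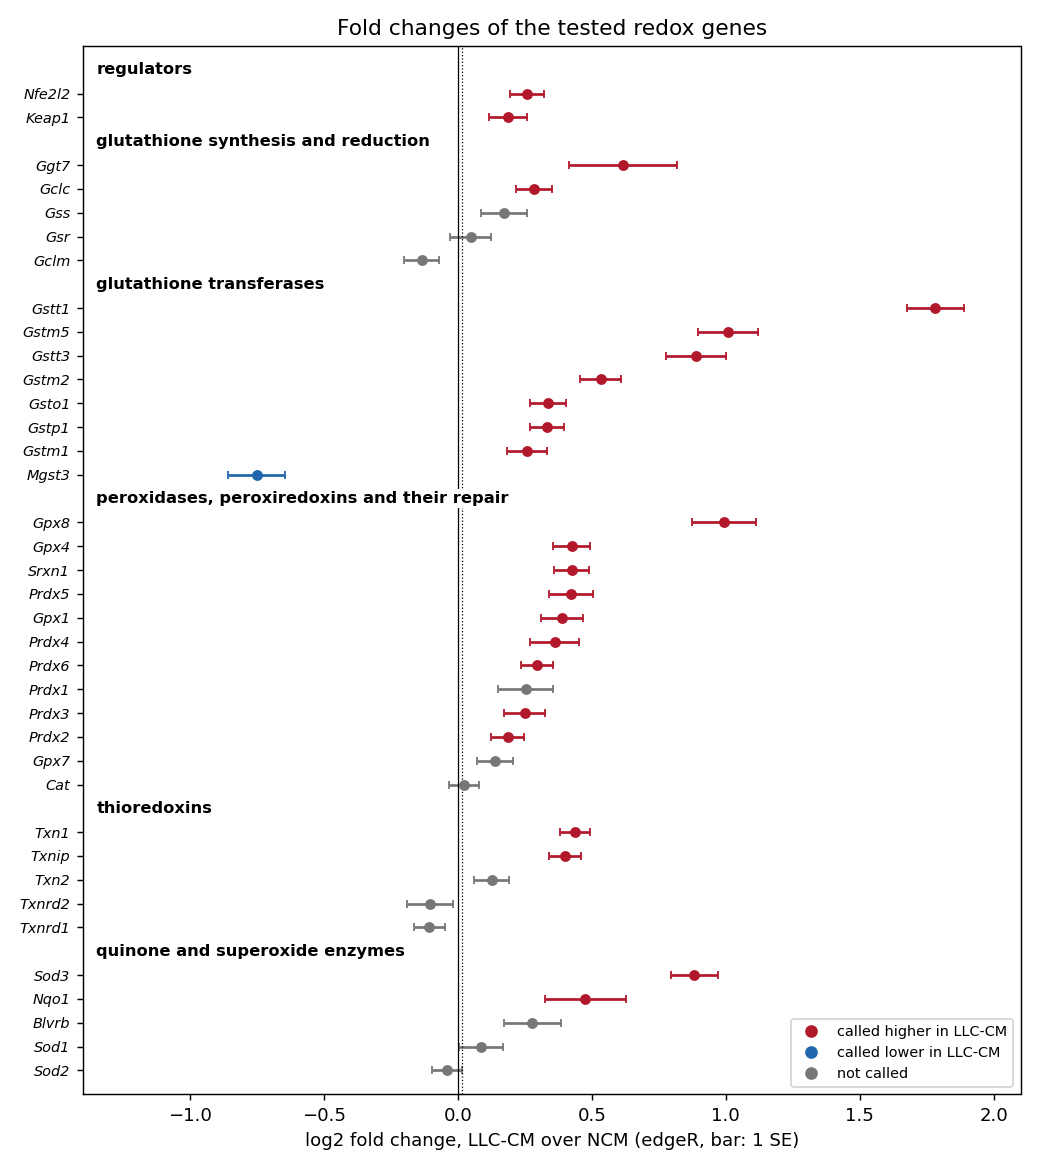
Fold changes of the 37 tested redox genes by role. The horizontal axis is the log2 fold change, LLC-CM over NCM, with bars of 1 SE from edgeR, and the dotted line is the median of all genes tested (0.01). The 24 members called higher (red) lie right of 0, Mgst3 (blue) is the 1 member called lower, and grey members were not called.

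Promoter windows are shown because many of these genes are known Nrf2 targets and 24 of the 40 members rose. RefSeq (GRCm38.p6, the assembly of mm10) held a window of 300 bases, 250 before to 50 after the start, for 35 of the 40 members. No window was held for Gclc, Gsr, Gsta4, Prdx6 and Sod3. The core of the antioxidant response element was searched as TGACNNNGC or TGAGNNNGC on both strands, letters that can overlap the AP-1 sites TGACTCA and TGAGTCA. It was found in 12 of 44 member windows (27.3%) and in 27.8% of all 32851 promoter windows. With the patterns pooled, the share of member windows thus lay at the background. Searched separately over all windows, TGACNNNGC was found in 12.4% and TGAGNNNGC in 17.6%. Member windows were not counted by pattern. Counted by gene, 12 of the 35 members with a window (34.3%) had a match, and no count by gene was made over all genes. Elements outside the window were not searched, and the window of Nqo1 held no match. Of the 12 members with a match 5 were called higher, and of the 23 without a match 16 were called higher and 1 lower. Of all genes tested, 18.8% were called higher and 18.1% lower. The windows below are those of the 3 members whose match also holds an AP-1 site (Srxn1, Gstp1 and Prdx1). Those of Gstt1 and Gstm5, the members that rose most, follow them. The match in Gstt1 was of the TGAGNNNGC pattern (TGAGAGAGC). Each window shown was among those with a match. Gpx8 rose nearly as much as Gstm5 (log2 fold change 0.99 against 1.01), and its window held no match. Capitals mark the matches, in the gene's own direction, and a match on the other strand reads as the reverse complement.
Srxn1, chr2:152105274-152105573, plus strand: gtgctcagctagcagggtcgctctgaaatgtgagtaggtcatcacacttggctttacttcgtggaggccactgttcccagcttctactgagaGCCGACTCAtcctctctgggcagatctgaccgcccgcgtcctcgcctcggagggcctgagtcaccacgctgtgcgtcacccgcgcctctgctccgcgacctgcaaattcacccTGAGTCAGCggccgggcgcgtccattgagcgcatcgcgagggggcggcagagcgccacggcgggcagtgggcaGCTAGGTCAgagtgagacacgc
Gstp1, chr19:4037863-4038162, minus strand: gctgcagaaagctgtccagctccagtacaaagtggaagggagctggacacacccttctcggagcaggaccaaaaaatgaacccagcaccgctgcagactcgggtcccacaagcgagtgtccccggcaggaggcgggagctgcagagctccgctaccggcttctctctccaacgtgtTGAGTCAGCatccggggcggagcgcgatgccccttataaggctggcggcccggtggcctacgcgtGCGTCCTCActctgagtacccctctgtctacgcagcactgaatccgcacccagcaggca
Prdx1, chr4:116685349-116685648, plus strand: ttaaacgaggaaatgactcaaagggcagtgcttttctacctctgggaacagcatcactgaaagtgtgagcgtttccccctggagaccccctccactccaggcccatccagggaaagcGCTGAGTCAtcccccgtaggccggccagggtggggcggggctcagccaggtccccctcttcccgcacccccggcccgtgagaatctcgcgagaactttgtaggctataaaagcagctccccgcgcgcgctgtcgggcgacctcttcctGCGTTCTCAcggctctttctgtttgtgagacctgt
Gstt1, chr10:75797682-75797981, minus strand: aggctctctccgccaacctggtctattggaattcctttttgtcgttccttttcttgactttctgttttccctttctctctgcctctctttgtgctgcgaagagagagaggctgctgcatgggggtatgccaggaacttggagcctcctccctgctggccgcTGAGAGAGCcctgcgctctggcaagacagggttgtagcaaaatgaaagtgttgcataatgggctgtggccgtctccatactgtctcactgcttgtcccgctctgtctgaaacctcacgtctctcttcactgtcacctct
Gstm5, chr3:107895604-107895903, plus strand: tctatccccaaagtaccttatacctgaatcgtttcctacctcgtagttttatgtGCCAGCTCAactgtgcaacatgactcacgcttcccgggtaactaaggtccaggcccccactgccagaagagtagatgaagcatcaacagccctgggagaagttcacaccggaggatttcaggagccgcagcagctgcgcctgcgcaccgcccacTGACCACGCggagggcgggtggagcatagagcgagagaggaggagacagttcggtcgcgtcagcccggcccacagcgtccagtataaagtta
The AP-1 overlapping match started 45 bases before the start site in Srxn1, 74 bases before it in Gstp1 and 133 bases before it in Prdx1. These are matches of letters in 1 window per start site. Srxn1 and Gstp1 were called higher in LLC-CM and Prdx1 was not called.

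Both regulators rose slightly. Nfe2l2 (ENSMUSG00000015839, chromosome 2, 75675513 to 75704641 in mm10) measured 156, 152, 147 and 143 CPM in the LLC-CM libraries and 140.3, 125, 116 and 119 CPM in the NCM libraries. Every LLC-CM library lay above every NCM library, with a log2 fold change of 0.26 ± 0.06 (SE, adjusted p = 0.0054). Keap1, the adaptor that directs Nrf2 to degradation, measured 30.9, 30.3, 32.4 and 34.0 CPM in LLC-CM and 26.98, 28.7, 29.8 and 26.7 CPM in NCM. Its groups did not overlap either, at 0.19 ± 0.07 and an adjusted p of 0.0495, just under the threshold. The adjusted p of Keap1 was above 0.05 without LLC-CM replicate 1 (0.079), 3 (0.11) or 4 (0.16) and without NCM replicate 1 (0.16), 2 (0.097) or 4 (0.15). An antisense gene model, Gm16754, overlaps 10.9% of the exonic length of Keap1, and the library kit does not mark strand. Per length, the level of Nfe2l2 was 5.16 to 6.23 times that of Keap1 in the LLC-CM libraries and 4.798 to 6.39 times in the NCM libraries, ranges that overlap.

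Genes of glutathione synthesis and reduction were split. Of 5 tested, Gclc and Ggt7 rose (40%, against 18.8% of all genes) and none fell, with a median log2 fold change of 0.17. Gclc, the catalytic subunit of glutamate-cysteine ligase, measured 90.8, 92.9, 86.5 and 86.9 CPM in LLC-CM, all above the 80.2, 72.2, 64.3 and 76.6 CPM in NCM (log2 fold change 0.28 ± 0.07, adjusted p = 0.0040). Gclm, its modifier subunit, was at 28.9, 29.6, 29.3 and 29.6 CPM in LLC-CM and 34.4, 31.2, 31.5 and 31.9 CPM in NCM. Each LLC-CM value of Gclm was below each NCM value, yet its log2 fold change of -0.14 ± 0.06 was not called (adjusted p = 0.12).

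The ratios of the subunits, which were not tested, were apart between the groups. Per length, Gclc was 5.08, 5.08, 4.78 and 4.75 times Gclm in the LLC-CM libraries and 3.77, 3.74, 3.31 and 3.89 times in the NCM libraries, with no overlap. The means were 4.92 ± 0.18 in LLC-CM and 3.68 ± 0.26 in NCM (SD, n = 4 each). Gsr, which returns oxidized glutathione to its reduced form, measured 50.9, 53.8, 47.2 and 48.1 CPM in LLC-CM and 47.6, 42.4, 50.7 and 52.8 CPM in NCM. Those values overlapped, and the log2 fold change was 0.05 ± 0.07 (adjusted p = 0.67). Gss, which adds glycine to complete glutathione, had a log2 fold change of 0.17 ± 0.09 and was not called (adjusted p = 0.13).

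Ggt7, a gamma-glutamyltransferase family member, was low in both groups. Its libraries held 2.25, 1.92, 2.44 and 2.87 CPM in LLC-CM and 1.40, 2.02, 1.41 and 1.39 CPM in NCM, and the highest NCM value exceeded the lowest LLC-CM value. The log2 fold change was 0.61 ± 0.20 (adjusted p = 0.026). Its adjusted p was above 0.05 without LLC-CM replicate 4 (0.089) and without NCM replicate 1 (0.076), 3 (0.068) or 4 (0.073).

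Around these members, a wider list of 40 other glutathione genes had 26 tested, of which 11 rose (42.3%, against 18.8% of all genes) and 3 fell (11.5%, against 18.1%), with a median log2 fold change of 0.26. Ggt5, a cell-surface enzyme that cleaves glutathione conjugates such as leukotriene C4, rose 54.4-fold to 80.7 ± 2.79 CPM in LLC-CM, against 1.48 ± 0.141 CPM in NCM (SD, n = 4 each). Slc3a2, the shared heavy chain of the cystine importer and other amino acid transporters, rose by 0.47 ± 0.05 on the log2 scale. Slc7a11, the light chain of the cystine importer, was on the list but had too few reads to be tested. Chac1, which degrades glutathione, fell to 0.841 ± 0.130 CPM in LLC-CM, against 4.01 ± 1.38 CPM in NCM, with a log2 fold change of -2.25 ± 0.25. Ggct, which acts on gamma-glutamyl amino acids, fell as well, with a log2 fold change of -1.05 ± 0.16. The third gene of the list that fell was Abcc4, at -0.63 ± 0.09. Among the genes that rose was Chac2, of the same family as Chac1, by 0.42 ± 0.12 on the log2 scale. It was at 7.45 ± 0.839 CPM in LLC-CM and 5.57 ± 0.336 CPM in NCM. Oplah, from the same list, rose by 0.99 ± 0.24. Chac1, Ggct, Abcc4, Chac2 and Oplah were named after their values were seen.

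Glutathione transferases included Gstt1 and Gstm5, which rose most among the members, and Mgst3, the member that fell. Of 8 tested, 7 rose (87.5%, against 18.8% of all genes) and 1 fell (12.5%, against 18.1%). None was uncalled, and the median log2 fold change was 0.43. Gstt1, a theta class transferase (ENSMUSG00000001663, chromosome 10, 75783813 to 75798584), measured 15.7, 16.8, 17.2 and 17.2 CPM in the LLC-CM libraries and 5.25, 5.42, 4.49 and 4.32 CPM in the NCM libraries. No NCM library came near the LLC-CM values, and the gene was 3.44-fold higher (log2 fold change 1.78 ± 0.11, adjusted p = 3.8e-09). Gstt3, its neighbour on the chromosome, measured 20.2, 17.1, 20.6 and 21.7 CPM in LLC-CM and 10.7, 12.9, 9.54 and 9.87 CPM in NCM, again without overlap (0.89 ± 0.11, adjusted p = 1.3e-05). Exons of another gene model on the same strand, Gm20441, cover 13.6% of the exonic length of Gstt3.

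Gstm5, a mu class transferase, measured 48.9, 56.4, 39.2 and 43.8 CPM in LLC-CM and 26.5, 23.9, 19.5 and 23.6 CPM in NCM. The lowest LLC-CM library was above the highest NCM library, and the log2 fold change was 1.01 ± 0.11 (adjusted p = 5.6e-06). Gstm2 measured 142, 155, 121 and 131 CPM in LLC-CM and 100.5, 101, 88.2 and 89.96 CPM in NCM, separated as well, at 0.53 ± 0.08 (adjusted p = 5.2e-05). For Gstm1 the libraries gave 127, 109, 109 and 111 CPM in LLC-CM and 106, 95.8, 96.1 and 83.9 CPM in NCM. Replicate 1 stood above the other LLC-CM libraries, and the groups were close but did not overlap (0.26 ± 0.07, adjusted p = 0.013). Without that library the adjusted p of Gstm1 was 0.062, and without NCM replicate 4 it was 0.052. An antisense gene overlaps 13.9% of the exonic length of Gstm5, and Gstm1 matches the pseudogene Gstm2-ps1 at 97.9% identity, so their reads could be split.

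The mu and theta genes lie in a cluster each, on chromosomes 3 and 10. All of them were looked at after the values of the members had been seen. Where 18.8% of all genes tested rose, 6 of the 7 Gstm genes counted were tested and 5 of them rose. Besides the members these were Gstm7, at 1.32 ± 0.23 and 3.15 ± 0.788 CPM in LLC-CM against 1.24 ± 0.352 CPM in NCM, and Gstm4, at 0.91 ± 0.23 and 3.02 ± 0.711 CPM in LLC-CM against 1.599 ± 0.467 CPM in NCM (SD, n = 4 each). Gstm3 had a log2 fold change of 0.49 ± 0.20 and was not called (adjusted p = 0.067). Of 4 Gstt genes 3 were tested and 2 rose, the members Gstt1 and Gstt3. Gstt2, with 51 reads over LLC-CM and 21 over NCM, had 1.16 ± 0.58 and was not called (adjusted p = 0.13).

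**Figure D2:**
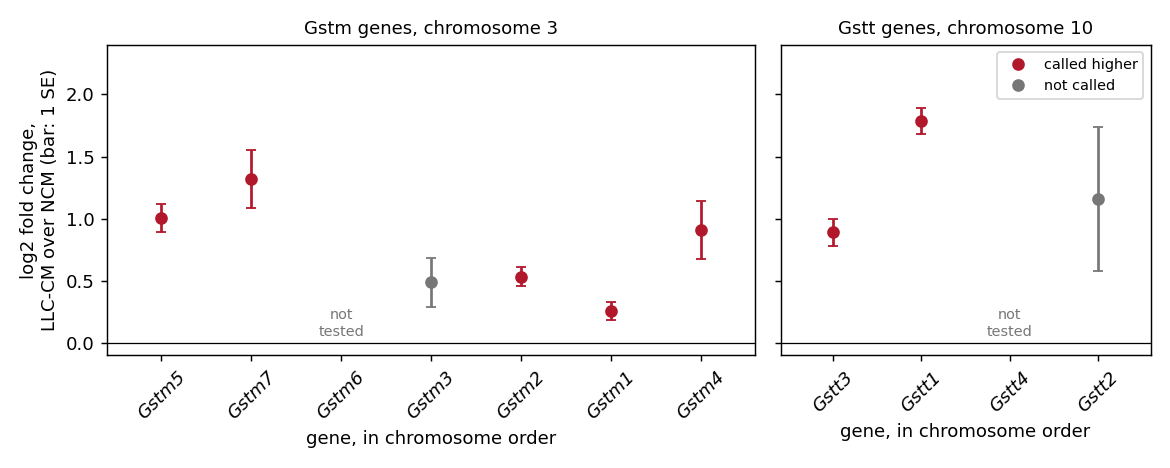
Log2 fold changes (LLC-CM over NCM, bars of 1 SE) of every Gstm and Gstt gene in the table, in chromosome order. All tested genes have values above 0; red genes were called higher, and Gstm3 and Gstt2 (grey) were not called.

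Gstp1, the pi class transferase, had the highest level per length of the transferases, at 677 ± 70.2 TPM (the count per gene length, scaled to the same sum in every library) in LLC-CM and 554 ± 22.4 TPM in NCM (SD, n = 4 each). By library it measured 190.3, 169, 190.5 and 202 CPM in LLC-CM and 144, 151, 160.2 and 143 CPM in NCM. The groups did not overlap, and the log2 fold change was 0.33 ± 0.06 (adjusted p = 0.00076). Gstp1 transcripts match Gstp2 at 94.2% identity over 97.2% of their length, so the split of reads between them is uncertain, and Gstp2 also rose, by 0.38 ± 0.09 (adjusted p = 0.0042). Gsto1, an omega class enzyme with thioltransferase activity, rose by 0.34 ± 0.07.

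Mgst3, a microsomal transferase and peroxidase bound to membranes, was the member that fell. It measured 11.4, 10.8, 13.5 and 11.7 CPM in LLC-CM and 18.8, 18.9, 24.0 and 18.3 CPM in NCM. Even the lowest NCM library was above every LLC-CM library, and the log2 fold change was -0.75 ± 0.11 (adjusted p = 4.8e-05). Its relative Mgst1 had 7, 5, 3 and 22 reads in the LLC-CM libraries and 0, 0, 2 and 0 in the NCM libraries, 37 against 2 in all, and was too low to be tested. Scaled to depth, LLC-CM had 17.1 times the NCM level (exact 95% interval for counting error, 4.41 to 146), with 22 of the 37 reads in LLC-CM replicate 4. Mgst2, another membrane-bound relative, from the wider list, rose by 2.00 ± 0.17 on the log2 scale, to 4.82 ± 0.467 CPM in LLC-CM, against 1.20 ± 0.168 CPM in NCM (adjusted p = 1.8e-07). Ptges, a prostaglandin E synthase that uses glutathione, rose by 0.62 ± 0.07. Gsta4, an alpha class enzyme that handles lipid aldehydes, had too few reads for a fold, 3 in LLC-CM and 1 in NCM.

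Of the 10 transferases, Gstm5, Gstt1, Gstt3 and Mgst3 had shares of the summed level that did not overlap between the groups. Summed per length, the 10 members gave 1270 to 1419 TPM in the LLC-CM libraries and 1058 to 1116 TPM in the NCM libraries. Gstp1, the top transferase, made up 45.4% to 51.9% of that sum in LLC-CM and 48.4% to 53.4% in NCM, which overlap. The share of Gstm5 was 7.31% ± 1.18 in LLC-CM and 4.74% ± 0.63 in NCM, and that of Mgst3 2.15% ± 0.25 in LLC-CM and 4.71% ± 0.54 in NCM (SD, n = 4 each), in both cases without overlap. Gstt1, the most changed, remained a small share, at 1.97% to 2.30% in LLC-CM and 0.740% to 0.902% in NCM.

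**Figure D3:**
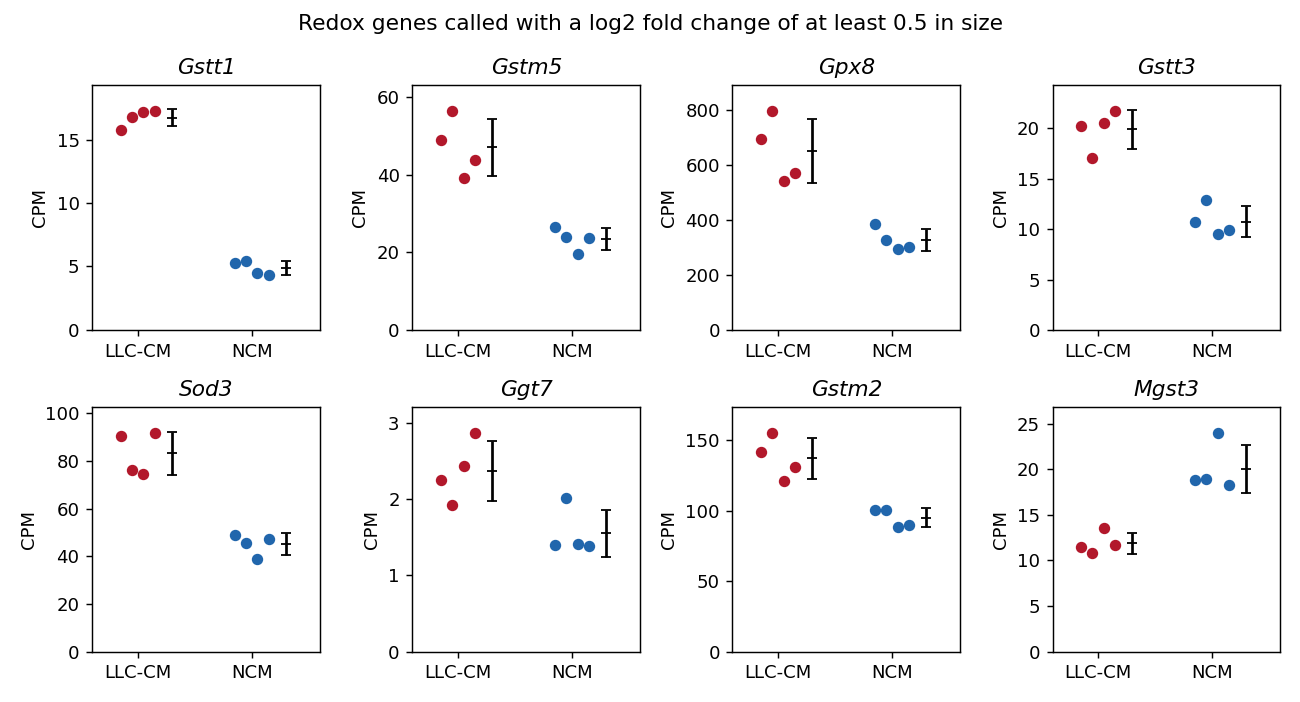
CPM by library of the 8 members called with a log2 fold change of at least 0.5 in size, with the 4 LLC-CM libraries (red) left of the 4 NCM libraries (blue), and the mean and SD in black. The groups are apart for all but Ggt7, and Mgst3 is the member that is lower in LLC-CM.

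Among peroxidases, peroxiredoxins and the repair enzyme Srxn1, 9 of 12 tested rose (75%, against 18.8% of all genes) and none fell. The median log2 fold change was 0.33. Gpx8, a peroxidase of the endoplasmic reticulum membrane (ENSMUSG00000021760, chromosome 13, 113042763 to 113046388), was the most abundant member per length, at 1729.8 ± 244 TPM in LLC-CM and 901 ± 109 TPM in NCM (SD, n = 4 each). By library it measured 693, 794, 542 and 569 CPM in LLC-CM and 384, 327, 292 and 302 CPM in NCM. LLC-CM libraries spread widely but all lay above NCM, with a log2 fold change of 0.99 ± 0.12 (adjusted p = 1.8e-05). Gpx7, the other peroxidase of that compartment, was not called (0.14 ± 0.07, adjusted p = 0.13). Gpx8 made up 75.8% to 82.0% of the summed level of the 5 peroxidases in LLC-CM and 66.3% to 74.0% in NCM.

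The selenium-dependent peroxidases Gpx1 and Gpx4 rose by 0.39 ± 0.08 and 0.42 ± 0.07 (adjusted p = 0.0010 and 0.00015), without overlap between the groups. Gpx4, which reduces lipid peroxides in membranes, averaged 125 ± 7.68 CPM in LLC-CM and 93.3 ± 7.64 CPM in NCM (SD, n = 4 each). Its pseudogene Gpx4-ps2 matches it at 99.7% identity. Gpx3, the secreted plasma peroxidase, had 28 reads in LLC-CM and 15 in NCM and was not tested. Scaled to depth, LLC-CM had 1.72 times the NCM level, with an exact 95% interval for counting error of 0.890 to 3.47.

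Of the 6 peroxiredoxins 5 were called higher (18.8% of all genes were), each by less than 0.5 on the log2 scale. Prdx4, Prdx5 and Prdx6 had log2 fold changes of 0.36 ± 0.09, 0.42 ± 0.08 and 0.29 ± 0.06 (adjusted p = 0.0063, 0.00088 and 0.0010), each without overlap between the groups. Prdx4, which works in the endoplasmic reticulum, measured 248, 294, 208 and 225 CPM in LLC-CM and 207, 189, 177 and 186 CPM in NCM. The lowest LLC-CM library was just above the highest NCM library. Exons of Trmt112 on the other strand overlap 19.1% of the exonic length of Prdx5.

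Prdx1, the main cytosolic form and the most abundant peroxiredoxin per length (473 ± 58.6 TPM in LLC-CM and 412 ± 40.3 TPM in NCM, SD, n = 4 each), measured 534, 652, 446 and 495 CPM in LLC-CM and 493, 431, 401 and 460.2 CPM in NCM. Replicate 2 was high and replicate 3 low within LLC-CM, the groups overlapped, and the log2 fold change of 0.25 ± 0.10 was not called (adjusted p = 0.070). Without LLC-CM replicate 3 its adjusted p was 0.017, and without LLC-CM replicate 2 it was 0.19, with a log2 fold change of 0.14. Prdx2, another cytosolic form, and Prdx3, the mitochondrial form, were called at 0.19 ± 0.06 and 0.25 ± 0.08 (adjusted p = 0.029 and 0.020), with overlapping groups. The adjusted p of Prdx2 was above 0.05 without LLC-CM replicate 1 (0.095) or 4 (0.071) and without NCM replicate 1 (0.075), 2 (0.070) or 4 (0.10). That of Prdx3 was 0.058 without NCM replicate 2 and 0.060 without NCM replicate 3. Processed pseudogenes match Prdx1 at 98.3% and Prdx2 at 96.3% identity. The share of each peroxiredoxin in the family's summed level overlapped between the groups for all 6, with Prdx1 at 29.6% to 33.8% in LLC-CM and 30.1% to 34.0% in NCM. With the longest transcript as length, Prdx4 had a higher mean share than Prdx1 in LLC-CM, 28.2% against 27.5%.

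Srxn1, the sulfiredoxin that repairs overoxidized peroxiredoxins and a common Nrf2 readout, averaged 56.4 ± 2.99 CPM in LLC-CM and 42.0 ± 2.38 CPM in NCM (SD, n = 4 each) and rose by 0.42 ± 0.07 (adjusted p = 9.7e-05), without overlap. Cat, the peroxisomal catalase, averaged 59.6 ± 1.06 CPM in LLC-CM and 58.7 ± 2.64 CPM in NCM, with overlapping libraries and a log2 fold change of 0.02 ± 0.06 (adjusted p = 0.79).

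**Figure D4:**
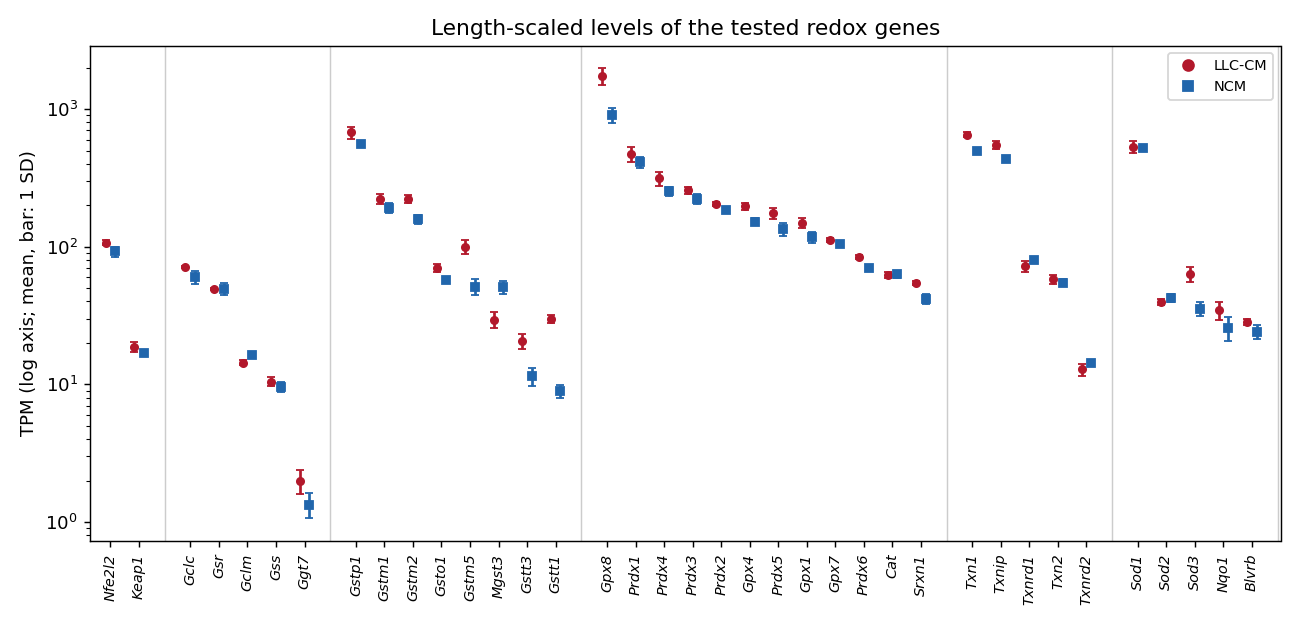
Length-scaled levels of the 37 tested members (TPM on a log axis, mean and SD over 4 libraries), ordered within each role by the NCM level, with LLC-CM (circles) left of NCM (squares). Gpx8 is the highest in both groups, and Ggt7 the lowest.

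In the thioredoxin system the cytosolic carrier and its inhibitor rose, while neither reductase was called. Of 5 tested, 2 rose (40%, against 18.8% of all genes) and none fell, with a median log2 fold change of 0.13. Txn1, the cytosolic thioredoxin, measured 246, 265, 236 and 263 CPM in LLC-CM and 186, 188, 182 and 189 CPM in NCM. The groups were well apart, with a log2 fold change of 0.44 ± 0.06 (adjusted p = 1.8e-05). Its pseudogene Txn-ps1 matches it at 95.8% identity. Txnip, which binds and inhibits thioredoxin and responds to glucose, measured 633, 584, 617 and 626 CPM in LLC-CM and 458, 471, 471 and 466 CPM in NCM. Its NCM libraries differed among themselves by little, and the log2 fold change was 0.40 ± 0.06 (adjusted p = 7.0e-05). An antisense gene model, Gm15441, overlaps 19.4% of the exonic length of Txnip.

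Txnrd1, the cytosolic reductase that recharges Txn1, averaged 90.3 ± 4.97 CPM in LLC-CM and 97.3 ± 3.63 CPM in NCM (SD, n = 4 each), with a log2 fold change of -0.11 ± 0.06 that was not called (adjusted p = 0.16). Per length, Txnrd1 stood at 0.116, 0.0966, 0.122 and 0.107 times Txn1 in the LLC-CM libraries and at 0.161, 0.151, 0.166 and 0.165 times in the NCM libraries. These ratios did not overlap between the groups, while those of Txnip to Txn1 did, at 0.766 to 0.905 in LLC-CM and 0.853 to 0.899 in NCM. In mitochondria, Txn2 (0.13 ± 0.06, adjusted p = 0.15) and its reductase Txnrd2 (-0.10 ± 0.09, adjusted p = 0.38) were not called. With 1 library left out at a time the adjusted p of Txn2 ranged from 0.0471, without NCM replicate 3, to 0.385, without NCM replicate 1.

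**Figure D5:**
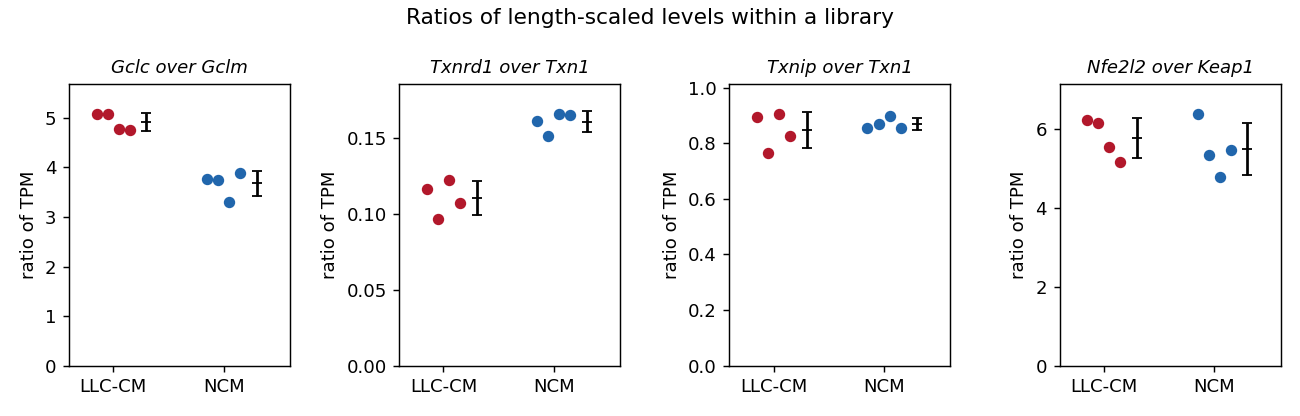
Ratios of length-scaled levels (TPM over TPM, linear axes from 0) in each library, with LLC-CM (red) left of NCM (blue), and the mean and SD in black. Gclc over Gclm is higher and Txnrd1 over Txn1 lower in every LLC-CM library than in any NCM library, and the other ratios overlap.

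A wider list of 21 other thiol reductases and related genes had 6 higher (28.6%, against 18.8% of all genes) and 4 lower (19.0%, against 18.1%) in LLC-CM, all 21 tested, with a median log2 fold change of 0.14. Arrdc4, an arrestin-like relative of Txnip, rose 2.54-fold to 35.4 ± 1.55 CPM in LLC-CM, against 13.9 ± 1.21 CPM in NCM. Arrdc3, another such relative, fell to 9.73 ± 0.573 CPM in LLC-CM, against 13.2 ± 0.396 CPM in NCM. Its log2 fold change was -0.44 ± 0.09, and it was named after its values were seen. Glrx, glutaredoxin, which uses glutathione to reduce mixed disulfides, rose 2.35-fold to 37.2 ± 4.93 CPM in LLC-CM, against 15.8 ± 1.38 CPM in NCM. Msrb3, a methionine sulfoxide reductase, fell to 184 ± 13.6 CPM in LLC-CM, against 327 ± 1.56 CPM in NCM, and Txnrd3, a thioredoxin reductase best known from testis, to 12.0 ± 1.19 CPM in LLC-CM, against 16.8 ± 0.665 CPM in NCM (SD, n = 4 each). Their log2 fold changes were -0.83 ± 0.06 and -0.49 ± 0.09.

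Among quinone and superoxide enzymes, 2 of 5 tested rose (40%, against 18.8% of all genes) and none fell. The median log2 fold change was 0.28. Sod3, the secreted superoxide dismutase that binds the extracellular matrix (ENSMUSG00000072941, chromosome 5, 52363946 to 52371405), measured 90.3, 76.0, 74.5 and 91.7 CPM in LLC-CM and 48.9, 45.6, 38.7 and 47.2 CPM in NCM. All LLC-CM libraries were above all NCM libraries, and the log2 fold change was 0.88 ± 0.09 (adjusted p = 1.3e-06). Sod1, the cytosolic form, measured 134, 147, 107 and 119 CPM in LLC-CM and 119, 124, 122 and 112 CPM in NCM, and Sod2, the mitochondrial form, 57.5, 54.7, 56.2 and 55.3 CPM in LLC-CM and 55.7, 57.3, 56.6 and 60.8 CPM in NCM. Both overlapped between the groups and neither was called, at 0.08 ± 0.08 and -0.04 ± 0.06 (adjusted p = 0.46 and 0.60). A processed pseudogene matches part of Sod1 at 98.0% identity.

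Nqo1, the quinone reductase that serves as the standard readout of Nrf2, averaged 19.9 ± 3.69 CPM in LLC-CM and 14.3 ± 2.81 CPM in NCM (SD, n = 4 each). It was called at 0.48 ± 0.15 (adjusted p = 0.024), though the groups overlapped. The adjusted p of Nqo1 was above 0.05 without LLC-CM replicate 1 (0.072) or 2 (0.069) and without NCM replicate 3 (0.058) or 4 (0.061). Blvrb, biliverdin reductase B, averaged 14.8 ± 0.602 CPM in LLC-CM and 12.2 ± 1.67 CPM in NCM. Every LLC-CM library of Blvrb was above every NCM library, and its adjusted p was 0.051 (0.28 ± 0.11), on the other side of the threshold from Keap1. Without NCM replicate 3 its adjusted p was 0.030, and without NCM replicate 4 it was 0.17, with a log2 fold change of 0.18.

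Other genes of the Nrf2 pathway were called at shares near those of all genes. Of a list of 38, 35 were tested, and 9 of these rose (25.7%, against 18.8% of all genes) and 7 fell (20%, against 18.1%), with a median log2 fold change of 0.04. Fth1, the ferritin heavy chain that stores iron, rose 3.36-fold to 1941 ± 331 CPM in LLC-CM, against 578 ± 58.0 CPM in NCM. Hmox1, heme oxygenase, rose 2.57-fold to 54.4 ± 1.92 CPM in LLC-CM, against 21.2 ± 2.91 CPM in NCM. Me1, the cytosolic malic enzyme that makes NADPH, fell to 50.4 ± 3.85 CPM in LLC-CM, against 146 ± 9.28 CPM in NCM, and Abcb6, a porphyrin transporter, to 13.7 ± 1.35 CPM in LLC-CM, against 25.4 ± 1.56 CPM in NCM (SD, n = 4 each). Their log2 fold changes were -1.54 ± 0.07 and -0.89 ± 0.09.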

How the data were processed

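RNA of 8 MC3T3 libraries (4 LLC-CM, 4 NCM) was sequenced from poly(A)-selected RNA, 200 ng of input and 12 PCR cycles, per the labels' protocols, with a kit that does not mark strand. The deposited table holds raw read counts per gene, per the file headers, and a gene length, which for 24 of the 40 members equals the exonic length in GENCODE M21. CASAVA, STAR, featureCounts and mm10 are named in the submitters' processing notes, without versions.

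The counts of all genes were fitted with edgeR 4.0.16 (R 4.3.3), quasi-likelihood F test, TMM factors, filterByExpr, no covariate. The p-values were Benjamini-Hochberg adjusted over 14991 genes at 0.05. The SE of a log2 fold change is its absolute value over the square root of F. TPM is the count per deposited length, scaled to the same sum in each library. The fit was tested on simulated data. Near copies came from blastn 2.17.0 (at least 90% identity over 200 bases). Values per library are given for Nfe2l2, Keap1, members called with at least 0.5 on the log2 scale, up to 2 more per role by level, and Gclm for its ratio to Gclc. Wider lists are named by up to 4 members of lowest adjusted p, plus the glutathione genes that fell (Chac1, Ggct and Abcc4). Chac2, Oplah, Slc7a11 and Arrdc3 are named beside genes of their lists. Gstp2 and the other Gstm and Gstt genes are named beside the members they resemble. Members, lists and rules were chosen with earlier results of these data known. Alternatives were other scalings and filters, DESeq2 1.42.0, limma-voom 3.58.1, replicate terms, a threshold of 0.01, each library left out, and the longest transcript as length.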

Additional observations from a re-analysis of the deposited data

Results flagged for a closer look

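In 80 groups of 4 libraries (40 members in each group), 7 had a highest library set apart from the rest by Dixon's test at its 95% critical value, where chance flags about 1 in 20. Among the 37 tested members it was 5 of 74 groups. Gstm1 was at 127 CPM in LLC-CM replicate 1 and Prdx3 at 160 CPM in LLC-CM replicate 2, each above the other LLC-CM libraries. In NCM replicate 2, Gss was at 22.5 CPM and Ggt7 at 2.02 CPM, both highest of their group. In NCM replicate 3, Mgst3 was at 24.0 CPM. The untested Mgst1, at 0.0706 CPM (2 reads), and Gsta4, at 0.0353 CPM (1 read), stood apart there only because the other NCM libraries had no read, so they are not set against that rate.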

How the results depend on the processing

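Over the 18 alternatives that refit or re-threshold the counts, between 18 and 25 members were called higher and 1 lower, against 24 and 1, and between 3946 and 5793 genes were called in all, against 5531. Of the 25 called members 19 were called under every alternative and none changed sign, and Keap1, Ggt7, Gstm1, Prdx2, Prdx3 and Nqo1 lost the call under at least 1. Keap1 was also not called with DESeq2 size factors in edgeR (0.064), with library size alone (0.051), with DESeq2 (0.071), without the low-count filter (0.098) or with a term for odd against even numbers (0.067). Blvrb passed under 7 alternatives, among them limma-voom (0.043) and upper-quartile factors (0.041). With 1 library left out at a time, members called higher ranged from 19 to 24, all called genes from 4912 to 5501, the log2 fold change of Gsr from -0.021 to 0.082 and that of Cat from -0.010 to 0.036, both uncalled throughout. The cause of these shifts was not tested.

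Correlations of the libraries' deviations from the group means did not settle whether the replicate numbers pair the libraries. They lay between -0.0438 and 0.204 for same-numbered libraries and between -0.227 and 0.177 for the other pairs. Of 4 LLC-CM libraries, 2 correlated best with their own number. With the replicate block 25 members were called higher, 1 lower and 5473 genes in all; Keap1 lost its call (0.069), and Prdx1 (0.041) and Blvrb (0.0499) gained one. With the longest transcript as length, 17 of 24 shares moved by over 1 SD. In LLC-CM, Gpx8 was then 71.8% of the peroxidases (78.8% with the deposited length) and Gstp1 40.2% of the transferases (49.3%). Prdx4 was 28.2% (20.8%) and Prdx1 27.5% (31.3%) of the peroxiredoxins. Of the dismutases, Sod1 was 49.97% (83.6%) and Sod3 35.0% (10.0%). The ratios between genes were not recomputed with the longest transcript.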

Other observations

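Genes that make or feed oxidants included the gene with the largest fall among the members and wider lists tested. Ncf1, an organizer subunit of the phagocyte NADPH oxidase, fell to 1.76 ± 0.668 CPM in LLC-CM, against 76.9 ± 14.4 CPM in NCM (SD, n = 4 each), with a log2 fold change of -5.42 ± 0.21 (adjusted p = 2.9e-09). Nox4, an oxidase that needs no such organizer, rose to 6.89 ± 0.789 CPM in LLC-CM, against 3.74 ± 0.855 CPM in NCM (0.88 ± 0.16), and Xdh, xanthine dehydrogenase, to 385 ± 28.4 CPM in LLC-CM, against 242 ± 12.7 CPM in NCM (0.67 ± 0.07). Lox, the collagen crosslinker that releases peroxide, fell by 0.26 on the log2 scale (adjusted p = 0.026). Of 12 tested oxidant sources and metal chaperones 4 rose (33.3%, against 18.8% of all genes) and 2 fell (16.7%, against 18.1%), with a median log2 fold change of 0.20. Of 10 tested genes of selenoprotein synthesis and selenium supply 2 rose (20%, near the 18.8% of all genes) and none fell. These were Selenop, the secreted selenium carrier, at 70.0 ± 6.01 CPM in LLC-CM and 49.3 ± 3.00 CPM in NCM (0.50 ± 0.07), and Lrp8, a receptor for it, at 6.81 ± 1.39 CPM in LLC-CM and 3.49 ± 0.746 CPM in NCM (0.96 ± 0.18).

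Within a group, members were highest in different libraries. Among the 37 tested members, LLC-CM replicates 1 to 4 were the highest of their group for 7, 14, 2 and 14 and the lowest for 4, 13, 19 and 1. NCM replicates 1 to 4 were the highest for 12, 8, 12 and 5 and the lowest for 2, 3, 15 and 17. Gclc, Gpx8, Prdx1, Prdx3, Prdx4, Gstm5 and Nqo1 were highest in LLC-CM replicate 2 and in NCM replicate 1, while Keap1, Gpx1, Gpx4, Gstp1, Prdx5, Txn2 and Txnrd2 were highest in LLC-CM replicate 4 and in NCM replicate 3. These groupings were chosen after their values were seen and have no test. The coefficient of variation had a median of 6.86% in LLC-CM and 7.87% in NCM, and reached 18.5% for Nqo1 in LLC-CM and 19.9% for Ggt7 in NCM.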
